A study of Mus musculus with 24 samples.

Results

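The heat shock chaperones examined here were 10 genes, taken by name from the gene tables as the rows Hspa1a, Hspa1b, Hspa8, Hsph1, Dnajb1, Hsp90aa1, Hsp90ab1, Hspb1, Hspd1 and Hspe1, out of 55421 genes listed. Their RNA was measured by poly(A) RNA-seq in hepatocytes from livers of male C57BL/6J mice, 1 library per animal. The 24 libraries fell into ND+veh (n = 8), HFD+veh (n = 7) and HFD+eRapa (n = 9). The ND+veh mice ate normal diet with vehicle throughout. The HFD+veh mice ate normal diet with vehicle from 4 months of age and were moved at 18 months to a diet with 60% of its calories from fat, with vehicle, for 9 weeks. The HFD+eRapa mice received Eudragit-encapsulated rapamycin, an inhibitor of the growth kinase complex mTORC1, at 42 ppm in the normal diet from 4 months and in the high fat diet for the same 9 weeks. Vehicle was the encapsulating material without drug. Treated mice had therefore eaten rapamycin for most of adult life before the fat was added, and no group stayed on normal diet with rapamycin to the end, so that earlier treatment and treatment during the high fat diet cannot be told apart. All libraries carried batch label 1.

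Heat shock proteins are molecular chaperones, which bind unfolded or partly folded proteins and keep them from aggregating. In the cytosol, HSP70 proteins hold client peptides in a cycle driven by ATP, J-domain proteins deliver clients to them, HSP110 proteins exchange their nucleotide, and HSP90 proteins act later on signalling proteins and receptors. Small heat shock proteins hold unfolded protein without ATP, and the HSP60 chaperonin with its HSP10 lid folds proteins inside mitochondria. Heat and protein damage release the transcription factor HSF1, which binds heat shock elements, inverted repeats of the unit nGAAn, and switches on the inducible members. The hepatocytes were isolated by collagenase perfusion with buffers warmed above body temperature, a handling step shared by all groups. RNA levels set by that step and levels present in the living liver cannot be told apart here.

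The members lie on 6 chromosomes of the mm10 mouse genome. Hspa1b (chr17:34956436-34959238) and Hspa1a (chr17:34969190-34972156) stand 9951 bases apart on the minus strand, and Hsp90ab1 lies on the same chromosome at chr17:45567775-45573271. Hspd1 (chr1:55077835-55088243, minus strand) and Hspe1 (chr1:55088132-55091307, plus strand) point away from each other and overlap by 112 bases at their 5′ ends. Hspb1 is at chr5:135887919-135889563, Hsph1 at chr5:149614287-149636376, Dnajb1 at chr8:83608193-83612653, Hspa8 at chr9:40800984-40810087 and Hsp90aa1 at chr12:110690605-110702728. All are protein-coding genes.

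RefSeq promoter windows on GRCm38.p6, from 250 bases before to 50 bases after a start site, were matched for 7 of the 10 members, all except Hspa8, Hsp90aa1 and Hsp90ab1. They were searched for heat shock element letters, either of the inverted pairs GAANNTTC and TTCNNGAA, each of which reads the same on both strands. A match to the 2-unit element was present in 7 of their 10 windows, from 6 of the 7 genes, against 15.1% of 32851 promoter windows. Longer 3-unit matches, GAANNTTCNNGAA or its reverse complement TTCNNGAANNTTC, contain the 2-unit pairs. They were found in 4 of the 10 windows, from the 3 genes Hspd1, Hspe1 and Hsph1, against 0.603% of all windows. The member windows are not independent, because some overlap and those of Hspa1a and Hspa1b are nearly identical. Dnajb1 had neither in its 2 windows. The promoters of the inducible HSP70 pair are shown because the copies can hardly be told apart, and that of Hspb1 because its RNA differed most between diets. In these upstream stretches, 5′ to 3′ on the gene's strand and ending at the base before the start site, capitals mark the matched element.

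Hspa1a (chr17:34972157-34972406, minus strand): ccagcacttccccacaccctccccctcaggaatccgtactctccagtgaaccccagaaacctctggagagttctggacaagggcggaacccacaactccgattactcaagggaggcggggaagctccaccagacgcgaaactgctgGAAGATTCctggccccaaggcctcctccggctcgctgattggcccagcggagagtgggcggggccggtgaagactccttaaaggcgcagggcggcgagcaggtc

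Hspa1b (chr17:34959239-34959488, minus strand): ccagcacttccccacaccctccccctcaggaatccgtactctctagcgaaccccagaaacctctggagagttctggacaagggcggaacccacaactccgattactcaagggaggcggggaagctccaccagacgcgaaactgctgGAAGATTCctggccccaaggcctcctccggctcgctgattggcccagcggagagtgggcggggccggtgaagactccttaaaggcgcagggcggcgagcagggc

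Hspb1 (chr5:135887669-135887918, plus strand): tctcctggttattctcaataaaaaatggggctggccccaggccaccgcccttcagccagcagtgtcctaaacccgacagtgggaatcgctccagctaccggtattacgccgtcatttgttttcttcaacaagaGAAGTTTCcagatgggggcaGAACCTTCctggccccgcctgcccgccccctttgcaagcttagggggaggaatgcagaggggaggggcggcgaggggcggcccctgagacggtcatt

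The Hspa1a and Hspa1b windows were identical at 296 of 300 bases. The substitutions, with the Hspa1a base first and positions counted from 1 at the 5′ end of the window, were C44T, T47C, T249G and C276T, none of them in the element. Hspb1 carried a pair of 2-unit matches, at bases -117 to -110 and -97 to -90 from its start site. The 3-unit match of the divergent mitochondrial genes is 1 stretch, which lies upstream of Hspe1 and inside the annotated Hspd1 gene. It falls in the Hspd1 window with start site 55087932, and the Hspd1 window with start site 55088243 held no match. It is shown on the Hspe1 strand. For Hsph1 the nearest 2-unit match upstream of the RefSeq start sites is shown, which is inside the annotated gene. The 3-unit match of Hsph1 lies after these start sites, at bases 37 to 49 or 16 to 28.

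Hspe1 and Hspd1 (chr1:55088053-55088082, plus strand): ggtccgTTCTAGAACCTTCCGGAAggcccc

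Hsph1 (chr5:149636351-149636380, minus strand): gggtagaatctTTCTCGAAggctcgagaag

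A match is a description of letters, and binding was not measured. Near-identical copies also limited the RNA values. Among all 75-base stretches of the longest protein-coding transcript, 54.2% of those of Hspa1a and 55.8% of those of Hspa1b occurred in transcripts of other genes, mostly in the partner gene. The share was 68.0% for Hspa8, 53.1% for Hsp90aa1, 47.3% for Hspb1, 33.7% for Hspd1 and 23.7% for Hspe1, most often shared with pseudogenes or unnamed gene models, and 0.736% for Hsp90ab1. Hsph1 and Dnajb1 shared no such stretch. Of 11 pseudogene rows named after Hspd1 or Hspe1, only Hspd1-ps3 passed the filter on low counts, with 44 to 124 counts per library, and no other row exceeded 13 counts.

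The libraries held 17739252 to 25945134 gene counts each. All 10 members passed the filter, together with 13847 genes in all. The hepatocyte label was checked against markers. The summed level of 10 hepatocyte markers ranged over 56227 to 166740 counts per 1000000 (CPM), and each marker was detected in all groups. Markers of other cells were present too, and the summed level of each marker list had its highest median in HFD+veh. The summed level of 12 macrophage markers had medians of 297 CPM in ND+veh (52.4 to 1569), 2960 CPM in HFD+veh (198 to 5886) and 236 CPM in HFD+eRapa (19.4 to 1230). The HFD+veh replicate 6 library had the highest immune marker score, the mean standardised log2 CPM of 18 macrophage, neutrophil and lymphocyte markers, at 1.62, and is given below wherever it decided a value. In bulk RNA, fewer hepatocytes in a sample and less RNA per hepatocyte cannot be told apart.

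To compare levels between members, the deposited FPKM values were used, which scale reads by kilobase of transcript and by 1000000 reads. They were computed by Cufflinks, separately from the gene counts that were tested. In ND+veh the constitutive HSP70, Hspa8, was the most abundant at 602 ± 116 FPKM (SD, n = 8), followed by the constitutive HSP90, Hsp90ab1, at 530 ± 80.6 FPKM. The ranges of these neighbours overlapped, and Hspa8 was the higher in 6 of 8 libraries. A second tier held the mitochondrial pair and the stress-related Hspb1 and Hsp90aa1, with Hspd1 at 179 ± 13.2, Hspe1 at 157 ± 23.2, Hspb1 at 154 ± 37.8 FPKM, and Hsp90aa1 at a mean of 140 FPKM (104 to 173). Each neighbour in this tier overlapped the next. Lowest were Hsph1 at 27.1 ± 4.97, Hspa1b at 16.2 ± 7.61, Dnajb1 at 12.7 ± 3.86 and Hspa1a at 3.43 ± 1.89 FPKM.

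The order changed below the top positions on high fat diet. Hspb1 fell from the fifth place to the sixth, at 40.9 ± 15.1 FPKM (n = 7) in HFD+veh and 54.8 ± 16.9 FPKM (n = 9) in HFD+eRapa, in both groups below every Hsp90aa1 value. Hspa1b stood at 5.86 ± 2.21 FPKM in HFD+veh, below Dnajb1 at 8.03 ± 1.77 FPKM in all 7 libraries, although the ranges overlapped. In HFD+eRapa Hspa1b was again above Dnajb1, at 15.7 ± 6.90 against 10.8 ± 1.53 FPKM and in 7 of 9 libraries. Hspd1 and Hspe1 could not be ordered in HFD+veh, where Hspd1 was the higher in 2 of 7 libraries. No test was made between genes.

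**Figure D1:**
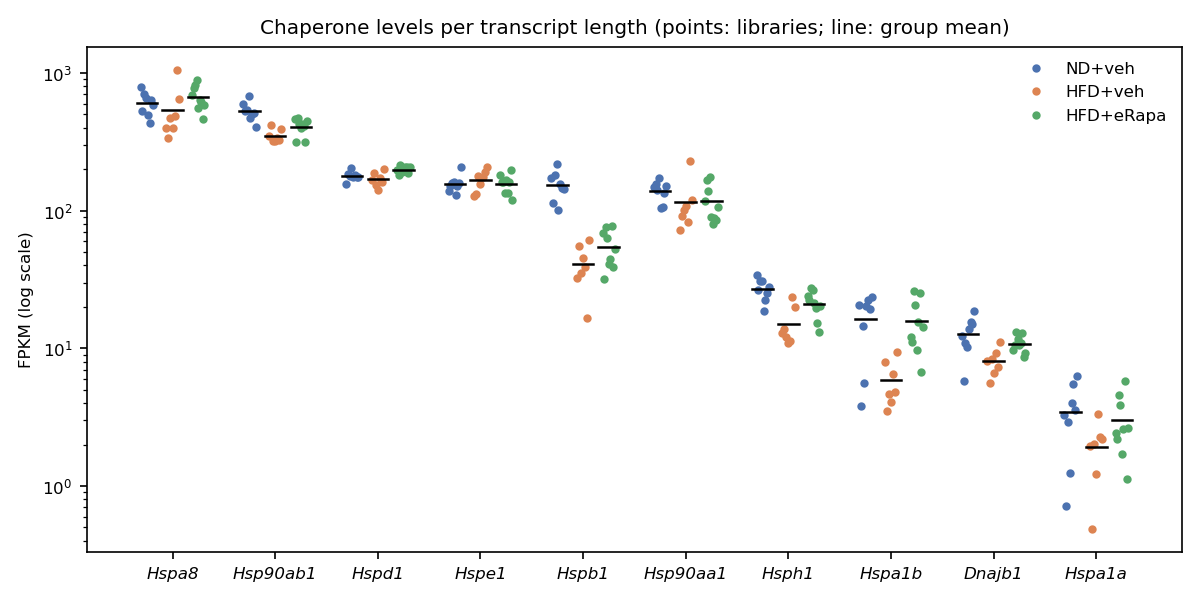
FPKM (log scale) of the 10 chaperone genes, ordered by their ND+veh mean, with 1 point per library, a line at each group mean and colours for ND+veh (n = 8), HFD+veh (n = 7) and HFD+eRapa (n = 9). Hspa8 and Hsp90ab1 lead in all 3 groups, and Hspb1 drops from a mean of 154 FPKM in ND+veh to 40.9 FPKM in HFD+veh.

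To ask how the high fat diet changed the chaperones, HFD+veh was compared with ND+veh on the counts, with levels given as CPM after scaling between libraries. In hepatocytes of HFD+veh mice, 5 of 10 members were lower and 0 higher: the small heat shock protein gene Hspb1, the inducible HSP70 gene Hspa1b, the HSP110 gene Hsph1, the J-domain gene Dnajb1 and the HSP90 gene Hsp90ab1. A gene was called at an adjusted p below 0.05 in edgeR's quasi-likelihood test over all tested genes. Of all tested genes 25.9% were called, 16% higher and 9.86% lower. Without HFD+veh replicate 6, 988 genes were higher and 1118 lower, against 2218 and 1366 with all libraries. The members' median log2 fold change was -0.45, against 0.05 for all tested genes. No member's groups were separate in the higher direction, as 1.21% of tested genes were. The same 5 genes were called when any single library was left out.

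Among the inducible HSP70 machinery, Hspa1b, which encodes the HSP70 that is made on stress, ranged from 6.79 to 46.6 CPM in ND+veh with a median of 37.6 CPM, and from 5.46 to 21.1 CPM in HFD+veh with a median of 8.69 CPM. The groups overlapped because ND+veh replicates 2 and 4, at 6.79 and 8.44 CPM, lay among the HFD+veh libraries, whereas the other ND+veh libraries were all above the highest of HFD+veh. The log2 fold change was -1.46 (SE 0.39, adjusted p = 0.0116), a 2.75-fold lower level. Its near-identical neighbour Hspa1a was counted at only 0.153 to 5.69 CPM in ND+veh and 0.132 to 3.66 CPM in HFD+veh, with a log2 fold change of -0.36 (95% interval -1.53 to 0.81, adjusted p = 0.665). How reads were divided between the pair is uncertain, and Hspa1a alone is uninformative at these counts.

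Dnajb1, the J-domain partner that stimulates HSP70, ranged from 19.2 to 62.3 CPM in ND+veh with a median of 46.0 CPM, and from 17.4 to 38.4 CPM in HFD+veh with a median of 24.5 CPM. The ranges overlapped, and all 7 HFD+veh libraries lay below the ND+veh median. The fitted log2 fold change was -0.68 (SE 0.20, adjusted p = 0.0202). Hsph1, the HSP110 that exchanges nucleotide on HSP70, ranged from 73.1 to 131 CPM in ND+veh with a median of 87.5 CPM, and from 33.0 to 87.0 CPM in HFD+veh with a median of 41.9 CPM. Here 5 of 7 HFD+veh libraries were below every ND+veh library, and replicates 6 and 7, at 87.0 and 84.3 CPM, were inside the ND+veh range. Its log2 fold change was -0.81 (SE 0.21, adjusted p = 0.00971).

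Hspa8, the HSP70 that cells make constantly, was not called. It ranged from 889 to 1564 CPM in ND+veh with a median of 1186 CPM, and from 636 to 2042 CPM in HFD+veh with a median of 904 CPM. The HFD+veh spread was wide because replicate 6 reached 2042 CPM and replicate 7 reached 1498 CPM, while 3 libraries were below all ND+veh values. Its estimated log2 fold change was -0.12 (95% interval -0.55 to 0.32, adjusted p = 0.713), and without replicate 6 it was -0.37 (adjusted p = 0.176).

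The HSP90 genes differed in precision. Hsp90ab1, the constitutive form, ranged from 1012 to 1389 CPM in ND+veh with a median of 1200 CPM, and from 665 to 1031 CPM in HFD+veh with a median of 827 CPM. In HFD+veh 6 of 7 libraries were below every ND+veh library, and replicate 7 overlapped. The log2 fold change of -0.53 was small with a tight error (SE 0.10, adjusted p = 0.000993). Hsp90aa1, the stress-inducible form, was 422 ± 66.5 CPM in ND+veh and 345 ± 153 CPM in HFD+veh. Replicate 6, at 669 CPM, was the highest HFD+veh library, and 5 of 7 were below all of ND+veh. Its log2 fold change was -0.29 (95% interval -0.74 to 0.16, adjusted p = 0.336), and without replicate 6 it was -0.57 (adjusted p = 0.0532).

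Hspb1, the small heat shock protein HSP25 that holds unfolded protein and binds actin filaments, had the largest difference among the members. It ranged from 71.1 to 113 CPM in ND+veh with a median of 104 CPM, and from 11.05 to 43.2 CPM in HFD+veh with a median of 26.5 CPM. The groups did not overlap, which was so in the lower direction for 1.23% of all tested genes. The fitted log2 fold change was -1.87 (SE 0.22, adjusted p = 6.18e-06), a 3.65-fold lower level. The lowest library was HFD+veh replicate 6, and without any 1 library the log2 fold change stayed within -2.02 to -1.76.

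The mitochondrial chaperonin genes were not called. Hspd1, which encodes HSP60, was 410 ± 29.3 CPM in ND+veh and 394 ± 73.2 CPM in HFD+veh, with a log2 fold change of -0.06 (95% interval -0.26 to 0.14, adjusted p = 0.671). Hspe1, which encodes its HSP10 lid, was 91.0 ± 15.7 CPM and 96.0 ± 17.7 CPM, with a log2 fold change of 0.08 (95% interval -0.21 to 0.36, adjusted p = 0.706). When the immune marker score entered the fit, all 5 called members were still called lower, Hspb1 at a log2 fold change of -1.86 and Hspa1b at -1.60.

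**Figure D2:**
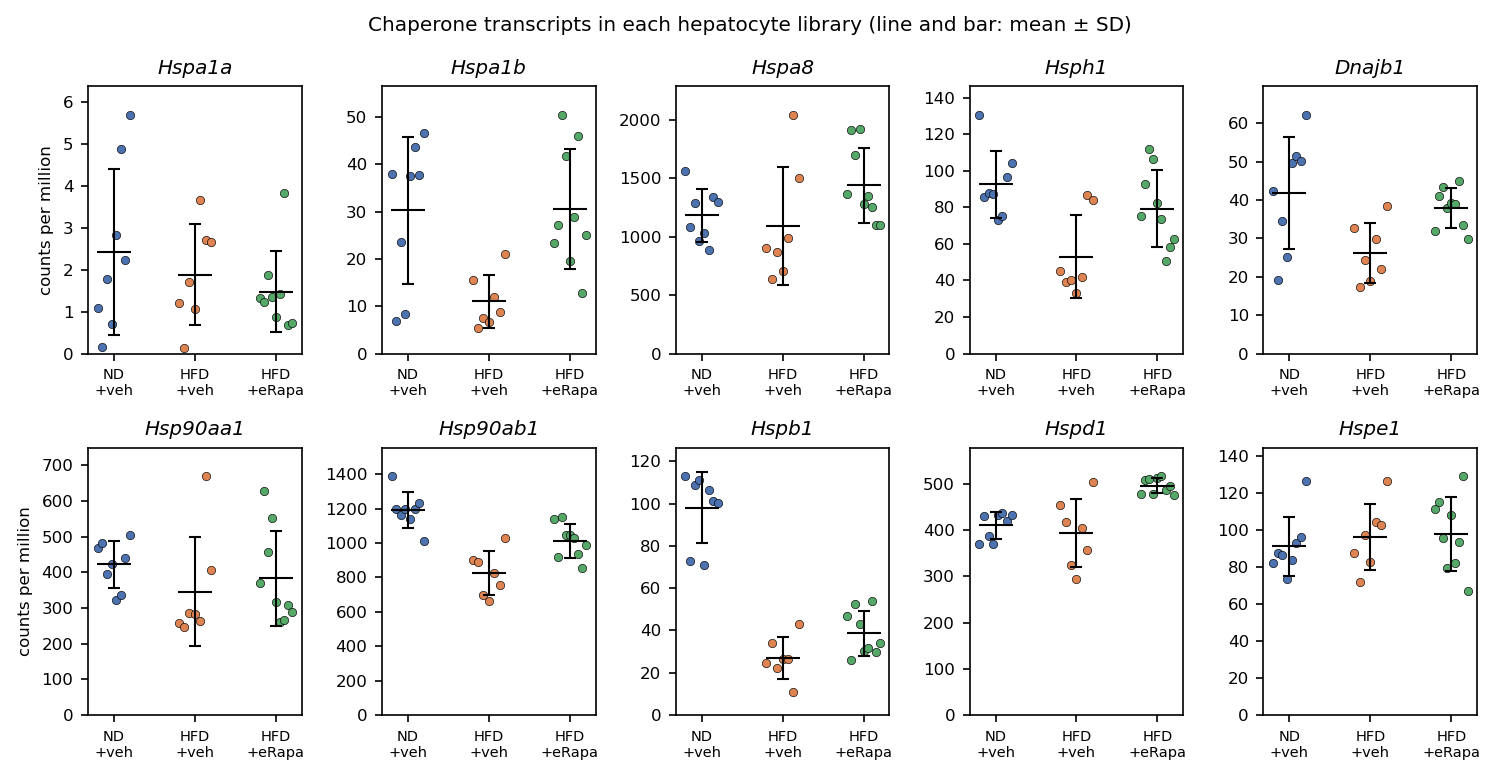
CPM of each chaperone gene in every library, on axes that start at 0, grouped by ND+veh (n = 8), HFD+veh (n = 7) and HFD+eRapa (n = 9), with the mean and SD drawn in black. The Hspb1 points of ND+veh, 71.1 to 113 CPM, stand clear of both high fat groups, and the Hspd1 points of HFD+eRapa cluster between 476 and 517 CPM.

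HFD+eRapa was then compared with HFD+veh to ask how rapamycin changed chaperone RNA on the high fat diet. Here 5 of 10 members were higher and 0 lower: Hspa1b, Hsph1, Dnajb1, Hsp90ab1 and the HSP60 gene Hspd1. Of all tested genes 32% were called, 10.9% higher and 21.1% lower. The members' median log2 fold change was 0.37, against -0.04 for all tested genes. The comparison shares its HFD+veh libraries with the preceding one, so the opposite signs of the values for a member are not independent observations.

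Hspa1b ranged from 12.7 to 50.5 CPM in HFD+eRapa with a median of 27.1 CPM, and 7 of 9 libraries were above the highest HFD+veh library. Its estimated log2 fold change was 1.48 (SE 0.39, adjusted p = 0.00637), a 2.78-fold higher level. It was called under every alternative tried, at an adjusted p of 0.000479 to 0.0206. Hspa1a, at 0.680 to 3.82 CPM, had a log2 fold change of -0.34 (95% interval -1.48 to 0.80). Its direction depended on the quantification. Its FPKM means were 2.99 in HFD+eRapa and 1.92 in HFD+veh, and limma on log2(FPKM + 1) gave 0.43 (adjusted p = 0.272). The estimate was 0.06 with a replicate block and 0.72 with the immune marker score in the fit, and none of these was called.

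Dnajb1 ranged from 29.9 to 44.9 CPM in HFD+eRapa with a median of 39.0 CPM, and 5 of 9 libraries were above every HFD+veh library. Its log2 fold change was 0.53 (SE 0.20, adjusted p = 0.0442). The call was lost without HFD+veh replicate 2, 3, 4 or 6 or HFD+eRapa replicate 2, 3, 4, 5, 6 or 7, at adjusted p-values of 0.0540 to 0.0921, with log2 fold changes of 0.45 to 0.53. Hsph1 ranged from 50.9 to 112 CPM with a median of 75.2 CPM, overlapped HFD+veh, and had a log2 fold change of 0.58 (SE 0.21, adjusted p = 0.0325). That call was lost without HFD+veh replicate 1, 2, 3, 4 or 5 or HFD+eRapa replicate 3 or 4, at adjusted p-values of 0.0509 to 0.0722.

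Hspa8 ranged from 1096 to 1919 CPM in HFD+eRapa with a median of 1349 CPM. All 9 libraries were above the HFD+veh median, while none exceeded HFD+veh replicate 6. The log2 fold change of 0.40 was not called (adjusted p = 0.139). Without HFD+veh replicate 6 it was 0.65 and was called (adjusted p = 0.0162).

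Hsp90ab1 ranged from 856 to 1151 CPM in HFD+eRapa with a median of 1033 CPM, and 5 of 9 libraries were above all of HFD+veh. The fitted log2 fold change was 0.30 (SE 0.10, adjusted p = 0.0229), and the call was lost without HFD+veh replicate 3 (adjusted p = 0.0606) or 4 (adjusted p = 0.0608). It was also lost with no filter (adjusted p = 0.0565) and with only the 2 groups fitted (adjusted p = 0.0563). With limma on log2(FPKM + 1) the estimate was 0.21 and was not called (adjusted p = 0.155), nor was it on log2(FPKM + 0.1) (adjusted p = 0.157). Hsp90aa1 was 383 ± 133 CPM, with a log2 fold change of 0.15 (95% interval -0.29 to 0.59, adjusted p = 0.621), and without HFD+veh replicate 6 of 0.43 (adjusted p = 0.11).

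Hspb1 ranged from 26.1 to 54.1 CPM in HFD+eRapa with a median of 34.0 CPM, and 3 of 9 libraries were above the highest of HFD+veh. Its log2 fold change of 0.53 (SE 0.20) lay at the threshold, at an adjusted p of 0.0506. It was called without HFD+veh replicate 2 or 7 or HFD+eRapa replicate 2, 5 or 8, at adjusted p-values of 0.0116 to 0.0469.

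Hspd1 ranged from 476 to 517 CPM in HFD+eRapa with a median of 495 CPM, and from 295 to 503 CPM in HFD+veh with a median of 404 CPM. The treated libraries were tightly grouped, with a coefficient of variation of 3.34% against 18.6% in HFD+veh, and HFD+veh replicate 7, at 503 CPM, was the 1 untreated library among them. Its estimated log2 fold change was 0.33 (SE 0.09, adjusted p = 0.00942). Hspe1 was not called, at 97.8 ± 19.8 CPM and a log2 fold change of 0.03 (95% interval -0.25 to 0.30, adjusted p = 0.905).

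Non-hepatocyte markers moved with this comparison. Of the macrophage markers 10 of 12 were lower in HFD+eRapa, and 7 of 7 endothelial and 7 of 7 stellate cell markers were lower. Once the immune marker score entered the fit, only Hspa1b remained called, at a log2 fold change of 1.64 (adjusted p = 0.0206), while Hspd1 was at 0.27 (adjusted p = 0.149) and Hsp90ab1 at 0.22 (adjusted p = 0.279). In that fit Dnajb1 was at 0.63 (adjusted p = 0.0899) and Hsph1 at 0.72 (adjusted p = 0.0594).

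**Figure D3:**
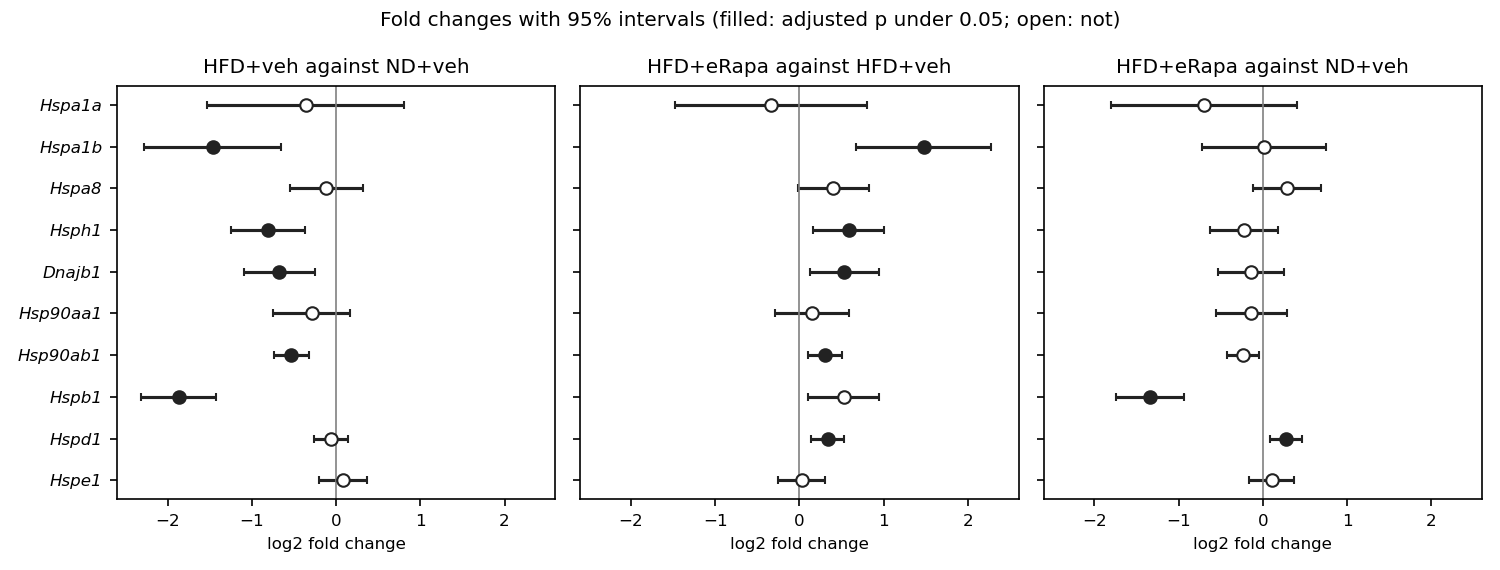
Log2 fold changes of the 10 chaperone genes with 95% intervals in the 3 comparisons. Filled points were called at an adjusted p below 0.05 and open points were not. The points of Hspb1 lie at -1.87 and -1.34 against ND+veh, and the point of Hspa1b at 1.48 in HFD+eRapa against HFD+veh.

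The comparison of HFD+eRapa with ND+veh set both treatments together against the control diet. Only 2 of 10 members were called, Hspb1 lower and Hspd1 higher, against 13.5% of all tested genes, of which 6.93% were higher and 6.54% lower. The members' median log2 fold change was -0.14, against -0.03 for all tested genes. Hspb1 lay below every ND+veh library in all 9 HFD+eRapa libraries, at a log2 fold change of -1.34 (SE 0.20, adjusted p = 5.26e-05). Groups did not overlap in that direction for 1.23% of all tested genes.

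Hspd1 ranged from 370 to 438 CPM in ND+veh, and all 9 HFD+eRapa libraries were above it, which was so for 2.14% of all tested genes. Its log2 fold change was 0.27 (SE 0.09, adjusted p = 0.0444). This call sat close to the threshold and was lost on leaving out any 1 library other than HFD+eRapa replicate 9, at adjusted p-values of 0.0502 to 0.146. Without each library the estimate stayed between 0.23 and 0.29, and with limma on log2(FPKM + 1) it was 0.15 (adjusted p = 0.208).

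Members other than Hspb1 and Hspd1 were not called between these groups. Hspa1b had a log2 fold change of 0.01 with a wide 95% interval of -0.72 to 0.75, Dnajb1 of -0.14 (-0.54 to 0.25) and Hsph1 of -0.22 (-0.62 to 0.18). Hsp90ab1 was at -0.24 (95% interval -0.43 to -0.04, adjusted p = 0.103), with all 9 treated libraries below the ND+veh median. Hspa8 was at 0.29 (95% interval -0.12 to 0.69), Hsp90aa1 at -0.14 (-0.56 to 0.29), Hspe1 at 0.10 (-0.16 to 0.37) and Hspa1a at -0.70 (-1.80 to 0.40).

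Ratios of partner genes within a library do not depend on scaling between libraries, and 3 were compared between groups by two-sided exact permutation tests, with adjustment over all 9 tests. The inducible to constitutive HSP70 ratio, Hspa1a plus Hspa1b counts over Hspa8 counts, had a median of 0.0274 in ND+veh (0.00644 to 0.0546), 0.0111 in HFD+veh (0.00558 to 0.0185) and 0.0224 in HFD+eRapa (0.0122 to 0.0397). In HFD+eRapa 5 of 9 libraries were above every HFD+veh library, and the exact permutation p was 0.00787, or 0.0708 after adjustment. The log2 difference of HFD+veh from ND+veh was -0.99, with an exact permutation p of 0.0511, or 0.153 after adjustment. These differences did not pass the threshold. They passed it, at an adjusted exact permutation p, without HFD+veh replicate 1 (0.0288) or HFD+eRapa replicate 8 (0.0322) for rapamycin, and without ND+veh replicate 2 (0.0446) for diet.

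The inducible to constitutive HSP90 ratio, Hsp90aa1 over Hsp90ab1 counts, had medians of 0.346 in ND+veh, 0.395 in HFD+veh and 0.324 in HFD+eRapa. HFD+veh replicate 6, at 0.883, stood apart from the other libraries of its group, which reached at most 0.425. No comparison passed, with adjusted exact permutation p-values of 0.753 to 0.818. The ratio of Hspd1 to Hspe1 counts had medians of 4.61, 3.87 and 5.23 in the same order of groups. HFD+eRapa exceeded HFD+veh by 0.33 on the log2 scale, with an exact permutation p of 0.0443, or 0.153 after adjustment. With the groups' ranges of 3.35 to 5.80 and 3.84 to 7.15 overlapping, a different change in the chaperonin and its lid was not established.

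To ask which members varied together between animals, log2 CPM was correlated over the 24 libraries for 6 pairs after group means were removed, with permutation p-values within groups. Hspa1b and Dnajb1, an HSP70 and its J-domain partner, varied closely, with Pearson r = 0.905 (permutation p = 1e-05, the smallest the permutations can give, adjusted 6e-05) and Spearman rho = 0.890 (permutation p = 1e-05). The value was r = 0.838 without ND+veh replicates 2 and 4, the libraries farthest from the median of Hspa1b. Within groups it was 0.972 in ND+veh, 0.971 in HFD+veh and 0.629 in HFD+eRapa. Hsp90aa1 and Hsph1 formed another close pair, with r = 0.820 (permutation p = 2e-05, adjusted 6e-05), rho = 0.793 (permutation p = 2e-05) and r = 0.806 without HFD+veh replicate 6 and HFD+eRapa replicate 2.

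Hspa1a and Hspa1b had r = 0.779 (permutation p = 3e-05, adjusted 6e-05) and rho = 0.735 (permutation p = 0.0002), and r = 0.695 without ND+veh replicate 2 and HFD+veh replicate 2. Their sequence overlap means that these are not separate measurements. The remaining pairs did not pass. Hspa1b and Hsph1 had r = 0.333 and rho = 0.352 (permutation p = 0.0901 and 0.0956), with r = 0.395 without the 2 farthest libraries. Hspd1 and Hspe1, despite sharing their 5′ region, had r = 0.322 and rho = 0.223 (permutation p = 0.131 and 0.293), with r = 0.10 without the 2 farthest. Hspa8 and Hsp90ab1 had r = 0.255 and rho = 0.333 (permutation p = 0.349 and 0.150), with r = 0.274 without the 2 farthest.

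**Figure D4:**
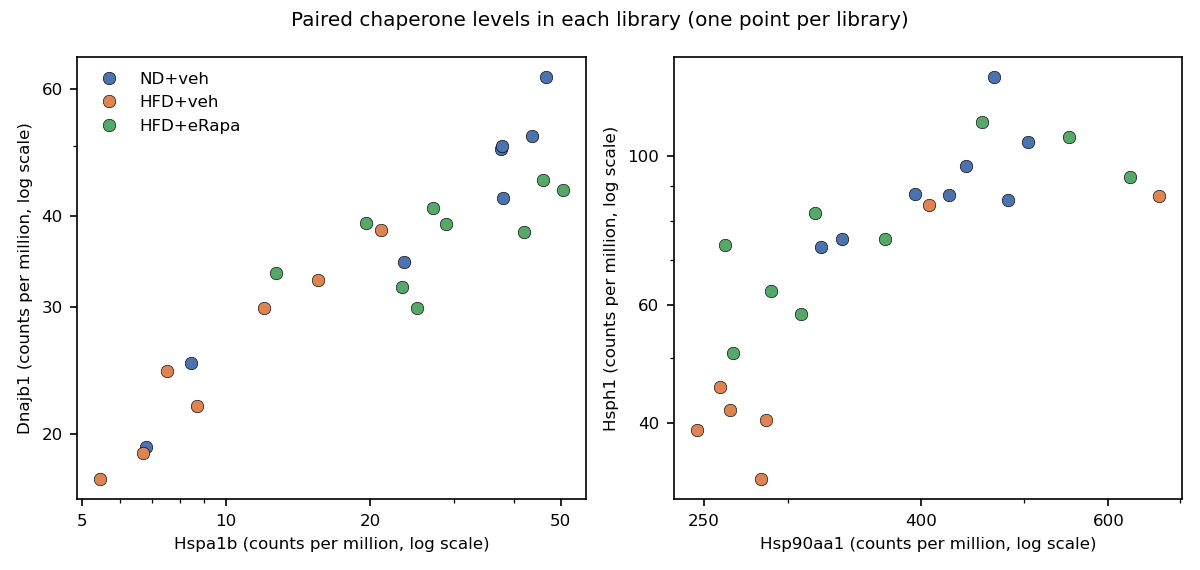
CPM (log scales) of Hspa1b against Dnajb1 and of Hsp90aa1 against Hsph1, 1 point per library, coloured by group. ND+veh replicates 2 and 4 lie with the low HFD+veh libraries in the first panel, at 6.79 and 8.44 CPM of Hspa1b, and HFD+veh replicate 6 lies far right in the second, at 669 CPM of Hsp90aa1.

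The other genes of the chaperone network were followed in 9 lists of 108 genes, of which 101 were tested. In HFD+veh against ND+veh 7 were higher and 18 lower. In HFD+eRapa against HFD+veh 18 were higher and 7 lower, and in HFD+eRapa against ND+veh 4 were higher and 6 lower. As shares of tested genes these were 6.93% and 17.8%, 17.8% and 6.93%, and 3.96% and 5.94%, beside the shares of all genes given above. Without HFD+veh replicate 6 the counts were 2 higher and 15 lower in the diet comparison and 19 higher and 4 lower in HFD+eRapa against HFD+veh. In the fit adjusted for the immune marker score, the counts were 1 higher and 9 lower, 4 higher and 0 lower, and 5 higher and 11 lower.

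The RNAs of the heat shock factors Hsf1 and Hsf2 were not called. Hsf1, the main heat shock factor, was 13.6 ± 1.96 CPM in ND+veh, 10.7 ± 2.79 CPM in HFD+veh and 10.9 ± 2.31 CPM in HFD+eRapa, and Hsf2, a related factor, was 23.2 ± 3.51, 19.7 ± 2.62 and 21.3 ± 2.51 CPM. Over the 3 comparisons, adjusted p-values were 0.127 or more for Hsf1 and 0.0989 or more for Hsf2. Hsbp1, which encodes a protein that binds HSF1, averaged 44.6 CPM in ND+veh, 62.4 CPM in HFD+veh and 62.8 CPM in HFD+eRapa. Its log2 fold change was 0.48 in HFD+veh against ND+veh (adjusted p = 0.00993), 0.49 in HFD+eRapa against ND+veh (adjusted p = 0.00679) and 0.01 between the high fat groups (adjusted p = 0.964). Of the 5 tested genes in the list of these factors and their regulators, 1 was higher in HFD+eRapa against HFD+veh and 0 lower. It was none of Hsf1, Hsf2 and Hsbp1. Of all tested genes 10.9% were higher there. With the immune marker score in the fit the count was again 1. In that fit 0 genes of the list were called in HFD+veh against ND+veh, so Hsbp1 lost its diet call. Its call in HFD+eRapa against ND+veh stayed (adjusted p = 0.000968). Bag3, an HSP70 co-chaperone that is itself an HSF1 target, was 60.3 ± 10.3 CPM in ND+veh and 38.6 ± 12.0 CPM in HFD+veh, at a log2 fold change of -0.64 (adjusted p = 0.00937). In HFD+eRapa it had a median of 48.4 CPM (35.6 to 68.3) and was not called against either group.

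Among small heat shock proteins, Hspb6, a relative of Hspb1, was 13.4 ± 2.57 CPM in ND+veh, 6.12 ± 1.95 CPM in HFD+veh and 10.6 ± 1.19 CPM in HFD+eRapa. Its HFD+veh libraries lay below all libraries of both other groups, at log2 fold changes of -1.13 against ND+veh (adjusted p = 0.00036) and, for HFD+eRapa against HFD+veh, 0.79 (adjusted p = 0.00313). Of all tested genes, 1.29% had no overlap in that higher direction. Among HSP70 and HSP90 partners, the ubiquitin ligase gene Stub1 rose by 0.59 on the log2 scale in HFD+eRapa relative to HFD+veh (adjusted p = 0.0178), and Fkbp5, a glucocorticoid receptor co-chaperone, rose by 0.77 in HFD+veh relative to ND+veh (adjusted p = 0.0271). Hspa4, an HSP110 relative of Hsph1, exceeded its ND+veh level by 0.31 in HFD+eRapa (adjusted p = 0.0103). The J-domain genes Dnajc8 and Dnajc13 exceeded their ND+veh levels in HFD+veh, by 0.64 (adjusted p = 0.0027) and 0.53 (adjusted p = 0.0272). Without HFD+veh replicate 6 the diet calls of Fkbp5 (adjusted p = 0.0776) and Dnajc13 (adjusted p = 0.164) were lost. With the immune marker score in the fit, Bag3 (adjusted p = 0.0759), Dnajc8 (adjusted p = 0.0600) and Dnajc13 (adjusted p = 0.408) were not called for diet, nor Hspb6 (adjusted p = 0.0636) and Stub1 (adjusted p = 0.359) for rapamycin.

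The mitochondrial list, which leaves out Hspd1 and Hspe1, had 6 of 15 genes higher and 0 lower in HFD+eRapa against HFD+veh, with a median log2 fold change of 0.34, against 10.9% of all tested genes called higher. The count was 3 without HFD+veh replicate 6 and 2 with the immune marker score in the fit. Clpb, a mitochondrial disaggregase, rose from 40.2 ± 9.68 to 58.0 ± 4.04 CPM (log2 fold change 0.53, adjusted p = 0.00227). Dnajc19, a J-domain protein of the mitochondrial import motor, exceeded its ND+veh level by 0.56 in HFD+eRapa (adjusted p = 0.00396). The endoplasmic reticulum list had 5 of 15 genes lower in HFD+veh against ND+veh, among them Hyou1 at a log2 fold change of -1.13 (adjusted p = 0.0045) and Creld2 at -1.04 (adjusted p = 0.0246), against 9.86% of all tested genes. Without HFD+veh replicate 6 the count was 2 and Creld2 was not called (adjusted p = 0.0508), and with the immune marker score it was 3. In HFD+eRapa against ND+veh 4 of 15 were lower, against 6.54% of all tested genes, including Sdf2l1 at -1.55 (adjusted p = 0.00171). That count was 2 without both HFD+veh replicate 6 and ND+veh replicate 4, and 7 with the immune marker score. Sdf2l1 was called in both fits (adjusted p = 0.0043 and 0.00118). Serpinh1, a collagen chaperone, had a log2 fold change of -1.98 between HFD+eRapa and HFD+veh (adjusted p = 0.00524), beside the lower stellate cell markers, whose part in that difference was not tested, and it was not called with the immune marker score in the fit (adjusted p = 0.570). Of 14 genes of the cytosolic chaperonin CCT and prefoldin, 0 were called in the diet comparison and 1, lower, in HFD+eRapa against HFD+veh. That comparison turned on 1 library. Without HFD+veh replicate 6 it had 4 of these genes higher and 0 lower, where 1232 of 13910 tested genes were higher and 2037 lower. With the immune marker score in the fit 0 were higher and 0 lower.

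Immediate early genes, which tissue dissociation is known to induce, were listed beside the chaperones because both can respond to handling. Of 16 such genes 0 were called in HFD+veh against ND+veh. In HFD+eRapa 4 were lower against HFD+veh and 3 lower against ND+veh, where 21.1% and 6.54% of all tested genes were called lower. The list's median log2 fold changes were -0.63 and -0.80, against -0.04 and -0.03 for all tested genes. With the immune marker score in the fit the counts were 1 and 7, and neither Nr4a1 (adjusted p = 0.0965) nor Ier5 (adjusted p = 0.138) was called against HFD+veh. Without both HFD+veh replicate 6 and ND+veh replicate 4, the count against ND+veh was again 3. Atf3 (adjusted p = 0.0666) and Ier5 (adjusted p = 0.0872) were not among the genes called there. With all libraries Nr4a1 was at a log2 fold change of -1.39 (adjusted p = 0.0176) and Ier5 at -1.38 (adjusted p = 0.00279) against HFD+veh, and Atf3 at -1.34 (adjusted p = 0.0309) and Ier5 at -1.01 (adjusted p = 0.0281) against ND+veh. The part of handling in the chaperone levels was not tested.

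**Figure D5:**
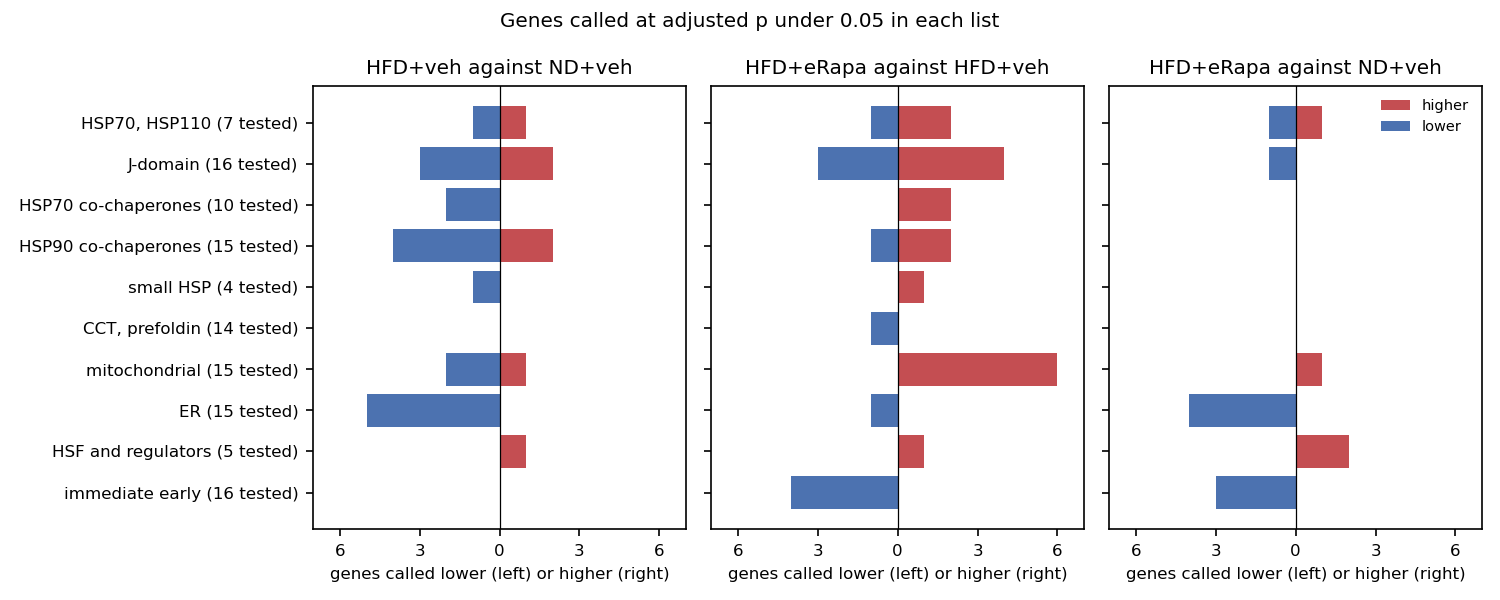
Numbers of genes called lower (left) or higher (right) at an adjusted p below 0.05 in 10 lists, 9 of chaperone network genes and 1 of immediate early genes, in the 3 comparisons. The endoplasmic reticulum list has 5 genes lower in HFD+veh against ND+veh, and the mitochondrial list 6 higher in HFD+eRapa against HFD+veh.

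Genes whose levels most resembled those of a member over the 24 libraries are given by Spearman correlation of CPM, as a description, since libraries share group and cell makeup. For Hspa1b they were Crat, a carnitine acetyltransferase (rho = 0.796), Angptl4, a secreted lipase inhibitor (0.764), Kcmf1 (0.757), Leng9 (0.756) and Lpin2, a phosphatidate phosphatase (0.742). For Hsp90ab1 they included Dpp9 (0.873), Tjp3 (0.861), the J-domain gene Dnajb2 (0.850) and Ncoa5 (0.850). For Hspd1 they were Acaa2, an enzyme of mitochondrial fatty acid oxidation (0.913), Ephx2, the soluble epoxide hydrolase (0.906), Alas2 (0.903), Pja1 (0.901) and Acsm1 (0.897).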

How the data were processed

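Poly(A) RNA-seq of isolated hepatocytes from 24 mice was analysed. The authors aligned reads to mm10 with Gencode vM23 by STAR in 2 passes, filtered them with SAMtools 1.1.0, and deposited raw counts per gene from HTSeq 0.11.2 and FPKM values per gene from Cufflinks. Whether counting used strand is not given in the sources used here, and HTSeq reads that align to several places may be left out. Libraries were grouped by their treatment label. Replicate numbers named different animals.

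Counts were tested with edgeR 4.0.16 (filterByExpr, TMM scaling, robust quasi-likelihood fit, R 4.3.3) in 1 fit of 24 libraries, with Benjamini-Hochberg adjustment over 13847 genes. CPM are counts per 1000000 after TMM scaling. Ratios used counts with 0.5 added, with exact permutation tests, and correlations used 100000 permutations (Python 3.11.15, numpy 2.4.6). Alternatives used DESeq2 1.42.0, limma 3.58.1 on log2(FPKM + 1) or log2(FPKM + 0.1), and left-out libraries. No pair of libraries of a group agreed within sampling noise. Positions come from Gencode M21, and promoters from RefSeq on GRCm38.p6. The statistical steps were tested on simulated data.

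The members and lists were chosen with earlier results of these data known. All members are named, with Hsf1, Hsf2 and Bag3, and, for each comparison, the 3 largest called rises and falls in the lists at a mean log2 CPM of at least 2, and, for 3 members, the 5 genes of most similar pattern, of which 1 is not reported here.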

Additional observations from a re-analysis of the deposited data

Results flagged for a closer look

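Among 39 sets of libraries tested for a single distant library (10 genes and 3 ratios in 3 groups), 3 had one, where chance alone would give about 1.95. Hspa1a was at 0.132 CPM in HFD+veh replicate 2, below the 1.07 to 3.66 CPM of the other libraries of that group, and these are values of 3 to 79 counts. The ratio of Hsp90aa1 to Hsp90ab1 was 0.883 in HFD+veh replicate 6, above the 0.277 to 0.425 of the rest of its group. The ratio of Hspd1 to Hspe1 was 3.44 in ND+veh replicate 8, below the 4.38 to 5.17 of the other ND+veh libraries.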

How the results depend on the processing

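For the 30 fold changes of the members (10 genes in 3 comparisons), 834 alternative estimates were made, of which 766 stayed on the same side of the threshold, 56 lost the call, 12 gained it and 0 reversed. An estimate not called in either fit counted as unchanged whatever its sign. In HFD+veh against ND+veh the number of members called was 5 without each library, and Dnajb1 lost its call when only those 2 groups were fitted (adjusted p = 0.0562). In HFD+eRapa against HFD+veh the number called ranged from 2 to 6 without each library. It was 3 when only the 2 groups were fitted, 3 with limma on log2(FPKM + 1), 3 with limma on log2(FPKM + 0.1) and 1 with the immune marker score in the fit. In HFD+eRapa against ND+veh it ranged from 1 to 2 without each library, and was 1 with DESeq2 size factors, 1 with no filter and 1 without both HFD+veh replicate 6 and ND+veh replicate 4, Hspd1 losing its call each time, as it did with limma on log2(FPKM + 1) (adjusted p = 0.208) and log2(FPKM + 0.1) (0.207). Hspb1 in HFD+eRapa against HFD+veh gained a call with DESeq2 (adjusted p = 0.0355), limma voom (0.0411) and DESeq2 size factors (0.0496), and Hsp90ab1 in HFD+eRapa against ND+veh with limma on log2(FPKM + 1) (0.0202). In HFD+eRapa against HFD+veh, Hsph1 lost its call with only the 2 groups fitted (adjusted p = 0.0654). Dnajb1 lost its call there with limma on log2(FPKM + 1) (adjusted p = 0.0691) and log2(FPKM + 0.1) (0.0676). The cause of these changes was not tested.

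Same-numbered libraries came from different animals, and the correlation of their deviations was above 0.1 in 5 of 7, 2 of 7 and 2 of 8 pairs (means 0.316, -0.245 and -0.203), so the number was not taken to pair them. With the number as a replicate block the members called were 5, 4 and 1, and 2532 genes in all were called in HFD+eRapa against HFD+veh.

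Over all genes, HFD+veh against ND+veh gave 3584 calls, 2333 with only the 2 groups, 1232 (598 higher, 634 lower) with the immune marker score, 2300 (1179 higher, 1121 lower) without both libraries, 2340 (1158 higher, 1182 lower) with limma on log2(FPKM + 0.1), and 2106 to 4479 without each library, the lowest without HFD+veh replicate 6. HFD+eRapa against HFD+veh gave 4432 calls, 2809 with at least 10 counts in every library and 1000 with the immune marker score. In the chaperone lists the immune marker score gave 10, 4 and 16 calls in the order of the comparisons, against 25, 25 and 10. For the lists, this fit and those without HFD+veh replicate 6, ND+veh replicate 4 or both were chosen after seeing the data. Without each library the log2 difference of the Hspa1a plus Hspa1b to Hspa8 ratio ranged from -1.25 to -0.81 for HFD+veh against ND+veh and from 0.68 to 0.97 for HFD+eRapa against HFD+veh. Depth limits Hspa1a most, with as few as 3 counts in a library.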

Other observations

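The 10 members together held 3239 to 4199 CPM in ND+veh (median 3525), 2115 to 4061 CPM in HFD+veh (median 2702) and 3026 to 4303 CPM in HFD+eRapa (median 3436). HFD+veh replicate 6, with the highest sum of its group, took 50.3% of it from Hspa8, and the remaining HFD+veh libraries took 27.0% to 39.9% from that gene. Replicate 6 combined the highest Hspa8, Hsp90aa1 and Hsph1 of its group (2042, 669 and 87.0 CPM) with its lowest Hspb1 (11.05 CPM).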
